A study of Mus musculus with 13 samples.

Results

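The miR-132 and miR-212 locus contributed 4 mature forms to the array, the 3p and 5p arms of each hairpin, out of 1079 mouse miRNAs. They were taken by name as the non-control rows of the scanner files that carry the names mmu-miR-132-3p, mmu-miR-132-5p, mmu-miR-212-3p or mmu-miR-212-5p (written without mmu- below). The 13 samples were primary abdominal neuroblastomas. The study's title names TH-MYCN mice, which carry a MYCN transgene under the tyrosine hydroxylase promoter and so express it in the sympathetic lineage, while the labels of single tumours do not state the transgene. Of these, 7 tumours were labelled deficient in caspase-8 with metastasis to bone marrow, and 6 were labelled wild type for caspase-8 with no metastasis. Genotype and metastasis changed together in all 13 mice and cannot be told apart. The labels give no age, and caspase-8 is a protein-coding gene that a miRNA array does not measure, so that the genotype could not be checked here. Each tumour's total RNA, labelled with Cy3, was read on its own 1-colour Agilent array, and the labels call the tumours biological replicates.

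A mature miRNA guides the Argonaute complex to transcripts that pair with its seed, bases 2 to 8, and lowers their translation and stability. miR-132 and miR-212 are processed from one primary transcript whose promoter in rodent neurons responds to the transcription factor CREB, so that both are known as miRNAs induced by neuronal activity and by neurotrophins. miR-132-3p is known for promoting dendrite growth in neurons. The locus is also used outside neurons, among others in endothelium and in stimulated leukocytes.

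The mature sequences, from RefSeq on GRCm38.p6, are shown because the pair of 3p arms share a seed while the pair of 5p arms do not. The seed is in capitals.

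miR-132-3p: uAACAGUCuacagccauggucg
miR-212-3p: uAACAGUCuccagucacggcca
miR-132-5p: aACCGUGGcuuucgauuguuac
miR-212-5p: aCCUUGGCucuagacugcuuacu

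Among the 1679 mature mouse names of that table, the seed of miR-132-3p occurred in 1 other miRNA, miR-212-3p, and the seeds of both 5p arms occurred in no other. The 3p arms were identical at 17 of 22 aligned positions and over the first 9 bases. Counted from 1 at the 5′ end, with the base of miR-132-3p first, they differed by A10C, C14U, U17C, U20C and G22A. Compared in the same way, from the first base and with no gap or shift, the 5p arms were identical at 9 of 22 positions. A shifted alignment was not counted, so that the 9 is no measure of how related the 5p arms are. Both hairpins lie on the plus strand of chromosome 11, at chr11:75173388-75173478 for Mir212 and chr11:75173682-75173747 for Mir132, with 203 bases between them and no other annotated gene across either. In that assembly's gene table the nearest neighbours are Hic1 and Ovca2. The array design itself was drawn on mm9, and no position was compared between the assemblies. The hairpins are printed with the mature arms in capitals, to show which arms of 1 precursor the array read.

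Mir132: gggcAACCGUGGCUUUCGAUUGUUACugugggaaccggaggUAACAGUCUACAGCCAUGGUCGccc
Mir212: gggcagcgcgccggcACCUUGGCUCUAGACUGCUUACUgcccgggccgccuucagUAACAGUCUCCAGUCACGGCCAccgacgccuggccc

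Each form was read by 2 probes with 20 spots per probe. Up to 469 mouse miRNAs were detected in a tumour, and the arrays lay on 2 slides. Slide 1 held 5 deficient and 2 wild-type tumours, and slide 2 held 2 deficient and 4 wild-type tumours, so that group and slide are partly confounded. No non-control spot was saturated. Of 20 forms on a list of neuron miRNAs, 9 were detected on all 13 arrays, miR-124-3p, miR-128-3p and miR-218-5p among them, and 7 on none. On a neuroendocrine list of 7 forms, 4 were detected on all 13 arrays and 1 on none. Of all 1079 mouse miRNAs, 294 were detected on all 13 arrays and 547 on none. A scaled level below is the summed intensity of a miRNA's probes after division by the array's 75th percentile, in array intensity units. Probes differ in brightness, so that levels are compared between tumours and not between miRNAs.

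Both 3p arms were detected in every tumour and both 5p arms in none. mmu-miR-132-3p and mmu-miR-212-3p were each detected in 7 of 7 deficient and 6 of 6 wild-type tumours. mmu-miR-132-5p and mmu-miR-212-5p were each detected in 0 of 7 deficient and 0 of 6 wild-type tumours. Detection is the mark of the scanner software, which was set in every case where the total signal of at least 1 probe exceeded 3 times its error. For miR-212-3p both probes passed that rule on all 13 arrays. For miR-132-3p both passed on 12, and in deficient replicate 3 probe A_54_P1055 did not. Detection did not vary between the groups for any form, so that no test of it was made.

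Below the detection limit, a single miR-212-5p probe differed from the other probes of the 5p arms. The scaled intensities of both miR-132-5p probes were below 0 on every array, at -6.63 to -1.09 in deficient and -8.47 to -2.25 in wild-type tumours. One miR-212-5p probe, A_54_P00004938, was likewise below 0 on every array. The other, A_54_P00004939, was at -0.679 to 5.47 in deficient tumours (median 1.28) and at 0.196 to 16.9 in wild-type tumours (median 2.56). Its highest intensities, 16.9 and 10.8, were in wild-type replicates 3 and 6, with a signal of 2.81 and 2.71 times its error. None of its spots was marked well above background on any array.

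**Figure D1:**
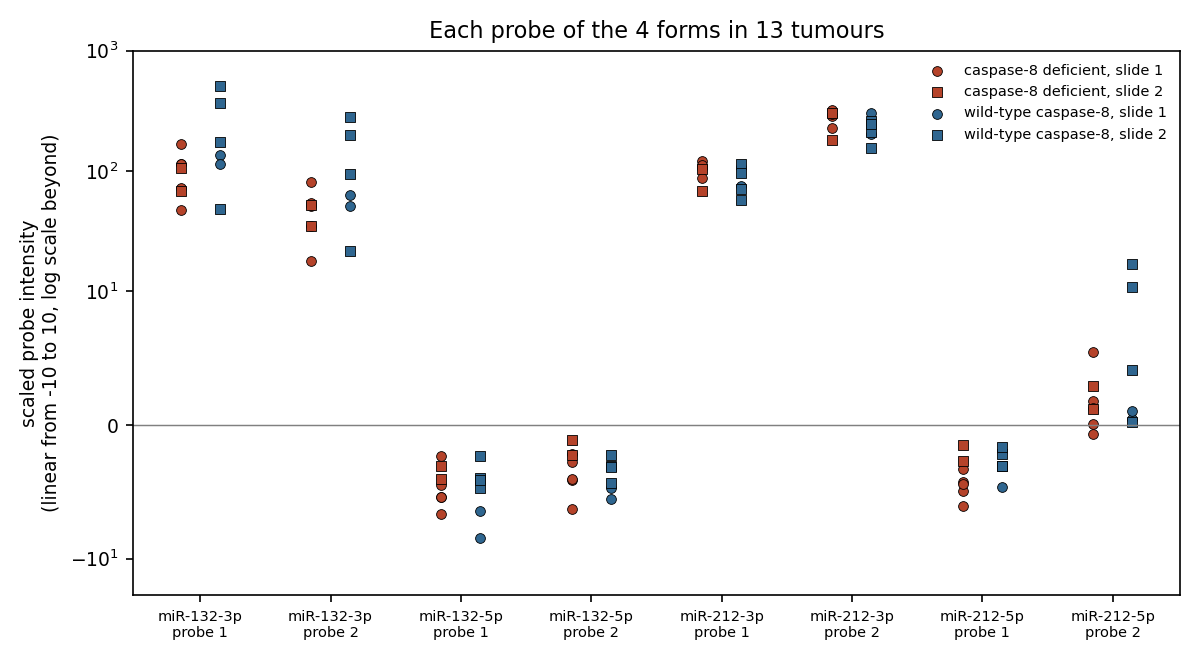
Scaled intensity of each of the 8 probes (x axis, 2 per form) in 13 tumours, on a y axis that is linear between -10 and 10 and logarithmic beyond. Deficient tumours are left of wild-type tumours for each probe, and circles and squares mark slides 1 and 2. The 4 probes of the 3p arms lie well above 0 and 3 of the 4 probes of the 5p arms lie below it, while the second probe of miR-212-5p reaches 16.9 in wild-type replicate 3.

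miR-132-3p varied widely between tumours and its mean was lower in deficient ones, without passing the test. Its scaled level had a lowest value of 65.8, a median of 158.7 and a highest of 249.4 in deficient tumours, against 70.0, 232.7 and 785.5 in wild-type tumours. The highest levels of all 13 were those of wild-type replicates 3 and 6, at 785.5 and 568.4, and the lowest were those of deficient replicate 3 and wild-type replicate 5, at 65.8 and 70.0. Apart from replicates 3 and 6, the wild-type tumours reached 266.9, and their range overlapped that of the deficient tumours almost entirely. The highest level was 11.9 times the lowest, and the SD over 13 tumours was 1.04 on the log2 scale, against a median of 0.53 for all 419 tested miRNAs. That SD was above those of 84.5% of them.

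On the log2 scale miR-132-3p was at 7.07 ± 0.63 in deficient tumours (SD, n = 7) and at 7.99 ± 1.26 in wild-type tumours (SD, n = 6). The difference, deficient minus wild type, was -0.92 (SE 0.49, 95% interval -1.98 to 0.14), with an adjusted p of 0.589 by limma over the 419 miRNAs. Its probes gave -0.88 and -0.99 and followed each other closely across tumours (r = 0.996 over 13 arrays). The interval holds no difference as well as lower levels in deficient tumours. Both 5p arms were below detection and not tested. Of the 2 tested forms 0 were called by limma at an adjusted p under 0.05, where 0% of all tested miRNAs were, and 0 had an unadjusted p under 0.05, where 3.82% of them did and 1.43% did with a lower mean in deficient tumours. Leaving out wild-type replicate 3 moved the difference by over 1.5 times, to -0.59. It was -0.69 when wild-type replicate 6 was left out, and -1.29 when wild-type replicate 5 was.

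Both tumours with high miR-132-3p were on slide 2. Within slide 1 the deficient tumours spanned 65.8 to 249.4 and the wild-type tumours 164.8 to 198.5, and the difference was -0.40 (SE 0.50). Within slide 2 the deficient tumours spanned 103.5 to 158.7 and the wild-type tumours 70.0 to 785.5, with a difference of -1.24 (SE 0.89). With slide as a block the difference was -0.80 (SE 0.55, limma adjusted p = 0.844). The group difference was not shown to depend on the slide (interaction -0.84, limma adjusted p = 0.924).

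miR-212-3p varied little. Its scaled level had a lowest value of 249.0, a median of 397.5 and a highest of 444.5 in deficient tumours, against 213.3, 312.8 and 409.8 in wild-type tumours. The groups overlapped over most of their range, the lowest tumours being wild-type replicate 4 and deficient replicate 4 and the highest deficient replicate 5. The highest level was 2.08 times the lowest, and the SD over 13 tumours was 0.33 on the log2 scale, above those of 21.5% of the tested miRNAs. Wild-type replicates 3 and 6, which led in miR-132-3p, were at 376.6 and 342.2, inside the range of the deficient tumours.

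The log2 level of miR-212-3p was 8.52 ± 0.29 in deficient tumours (SD, n = 7) and 8.28 ± 0.35 in wild-type tumours (SD, n = 6). The difference was 0.25 (SE 0.20, 95% interval -0.18 to 0.67, limma adjusted p = 0.668), and its probes gave 0.23 and 0.26. Slide 1 alone gave 0.21 and slide 2 alone 0.10, and the fit that blocked on slide gave 0.16 (limma adjusted p = 0.871). Leaving out wild-type replicate 4 gave 0.14. The sign of the difference was thus opposite to that of miR-132-3p, and neither passed the test.

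**Figure D2:**
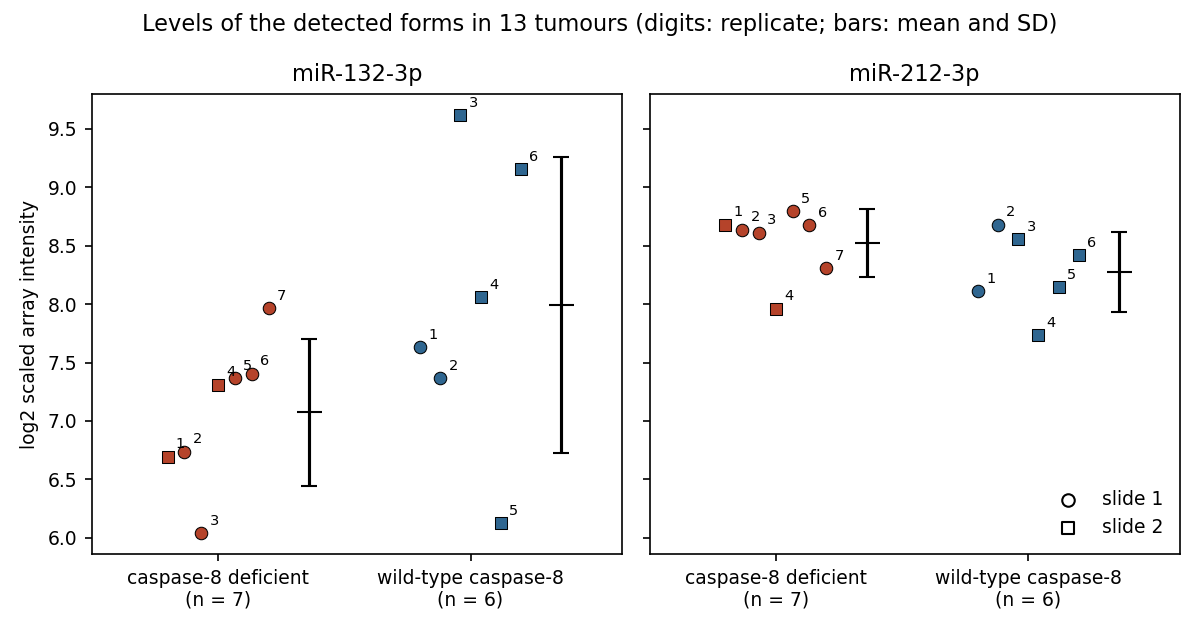
Log2 scaled intensity (y axis) of miR-132-3p and miR-212-3p in 7 deficient and 6 wild-type tumours, with replicate numbers beside the points, circles for slide 1, squares for slide 2, and bars for mean and SD. Wild-type replicates 3 and 6 stand above the other tumours for miR-132-3p and lie within the range of the deficient tumours for miR-212-3p.

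**Figure D3:**
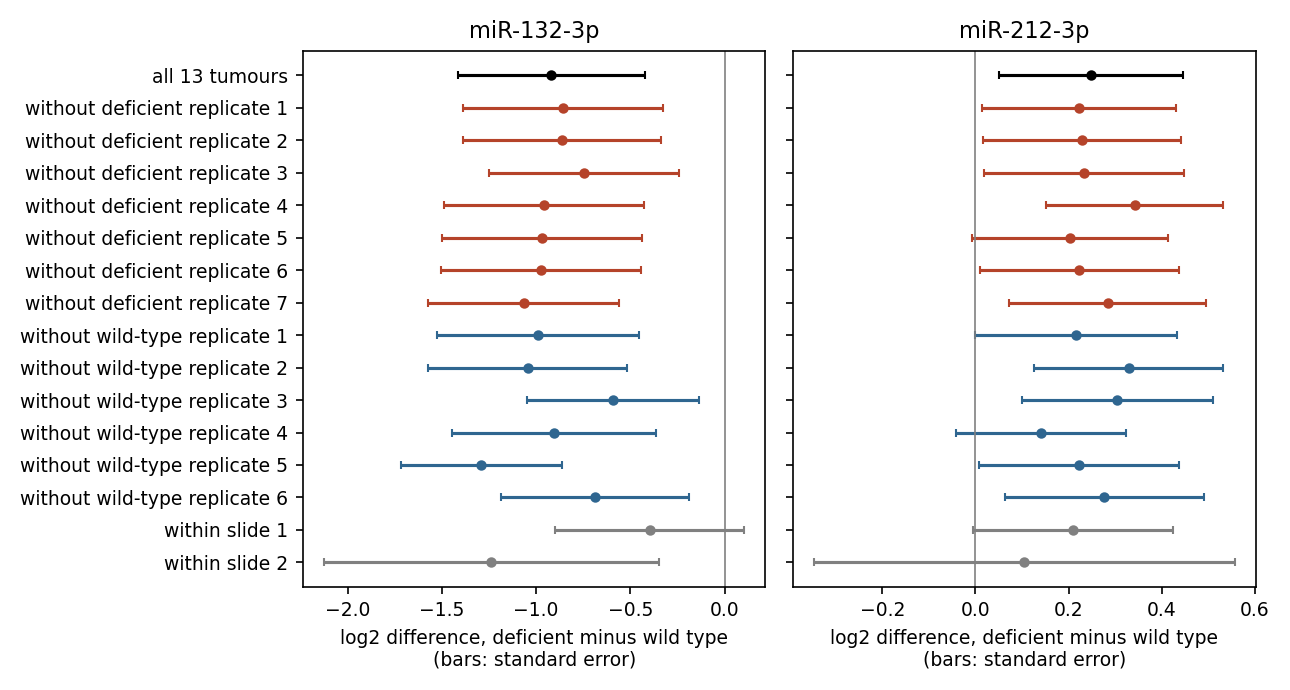
Difference in log2 level, deficient minus wild type (x axis, bars for the standard error), over all 13 tumours, without each tumour in turn and within each slide. miR-132-3p stays below 0 throughout, from -1.29 to -0.59 when 1 tumour is left out, and miR-212-3p stays above 0, from 0.14 to 0.34.

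The change in the proportion of the 3p arms was examined through their ratio within each array, which no scaling factor of an array changes. The probe sequences were not among the files used here, so that binding of one 3p arm to the probes of the other, which are identical at 17 of 22 bases, was not tested. That limit holds for the ratio and for the correlation between the arms. Because probes differ in brightness, the ratio has no meaningful zero and is compared between tumours alone. The log2 ratio of miR-212-3p to miR-132-3p was 1.45 ± 0.78 in deficient tumours (SD, n = 7) and 0.28 ± 1.21 in wild-type tumours (SD, n = 6). It spanned 0.35 to 2.57 in deficient tumours and -1.06 to 2.02 in wild-type tumours, so that the groups overlapped. The difference of 1.17 did not pass a two-sided exact permutation test over all 1716 splits of the tumours (p = 0.0635). Blocking on slide gave 0.96 (exact permutation over 315 splits, p = 0.162). The difference was 0.61 on slide 1 (exact permutation p = 0.476) and 1.34 on slide 2 (exact permutation p = 0.4, where 15 splits allow no p below 0.0667). It passed the test when 1 of 3 tumours was left out, at 1.51 for wild-type replicate 5 (exact permutation p = 0.0164), 1.37 for wild-type replicate 2 (exact permutation p = 0.0429) and 1.35 for deficient replicate 7 (exact permutation p = 0.0433). It was 0.74 with normexp background (exact permutation p = 0.0291).

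The 3p arms of the locus showed no clear relation to each other across tumours. Their log2 levels had r = -0.118 (permutation p = 0.707) and rho = -0.28 (permutation p = 0.354) over 13 tumours, with 100000 permutations and an adjusted p of 0.997 over a family of 25 correlations. Without wild-type replicates 3 and 6, the tumours farthest from the median of miR-132-3p, r was -0.361. It was -0.348 among deficient and 0.29 among wild-type tumours, and -0.427 on slide 1 and 0.197 on slide 2, and it was positive without scaling (0.233), after quantile normalization (0.0597) and in the authors' series matrix (0.114). Of the 292 other miRNAs detected in every tumour, 140 had a higher r with miR-132-3p than miR-212-3p had.

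The below-detection intensity of 1 of the 2 miR-212-5p probes moved with miR-132-3p, and that of the other did not pass the test. What a probe below detection measures was not tested, so that the intensity is not credited to miR-212-5p. Over 13 tumours the scaled intensity of probe A_54_P00004939 had r = 0.905 with the log2 level of miR-132-3p (permutation p = 1e-05, the smallest that 100000 permutations can give, adjusted p = 0.00025) and rho = 0.835 (permutation p = 0.00078, adjusted p = 0.0195). Without wild-type replicates 3 and 6 r was 0.774. It was 0.886 among deficient and 0.905 among wild-type tumours, 0.749 on slide 1 and 0.946 on slide 2, and 0.923 without scaling. With miR-212-3p, which comes from the same hairpin, the same probe had r = -0.032 (permutation p = 0.922, adjusted p = 0.997) with scaling and 0.262 without. The other 3 probes of the 5p arms had r of 0.439, 0.0605 and -0.0111 with miR-132-3p (adjusted p = 0.533, 0.997 and 0.997). As a description of these arrays, the 1444 probes of mouse miRNAs that were detected in no tumour had a median r of 0.156 with miR-132-3p, and 1 of them, this probe itself, reached 0.905. These correlations with single 5p probes were chosen after seeing the data, and they rest on intensities that the scanner software did not call detected.

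**Figure D4:**
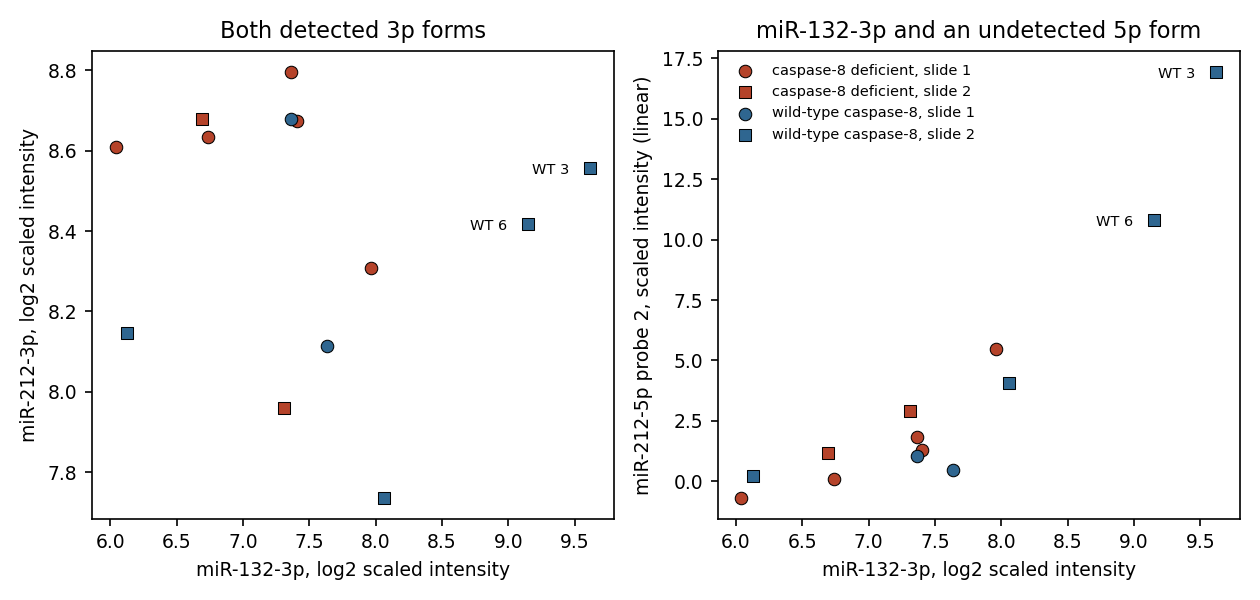
Log2 scaled level of miR-132-3p (x axes) against the log2 scaled level of miR-212-3p (left) and against the scaled intensity of the second miR-212-5p probe on a linear axis (right), 1 point per tumour, coloured by group with circles for slide 1 and squares for slide 2. The left panel shows no common trend (r = -0.118), and in the right panel the points climb together (r = 0.905) with wild-type replicates 3 and 6 highest in both measures.

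The miRNAs most like miR-132-3p across the 13 tumours, among the 292 detected in all, were miR-7b-5p (r = 0.813), miR-129-2-3p (0.811), miR-34c-5p (0.787), miR-598-3p (0.784) and miR-153-3p (0.784). miR-7b is abundant in hypothalamic and neuroendocrine cells, miR-129-2 and miR-153 are miRNAs of neurons, and miR-34c belongs to a family that p53 induces. Without wild-type replicates 3 and 6 these r were 0.661, 0.521, 0.354, 0.429 and 0.317. Leaving those tumours out narrows the range of miR-132-3p, which can itself lower r, so how much of the likeness lay in them was not settled. The lowest log2 level of miR-153-3p, 4.10, was the value to which lower levels were set, and its mean in deficient tumours was 4.47. Those most like miR-212-3p were miR-5097 (r = 0.766), miR-5100 (0.762), miR-17-3p (0.751), miR-652-5p (0.738) and miR-125a-5p (0.717), and without the tumours farthest from its median, wild-type replicate 4 and deficient replicate 4, these were 0.462, 0.727, 0.555, 0.566 and 0.477. The 5 miRNAs nearest to each arm had no member in common. With r = -0.118 between the arms, no miRNA could have r this high with both, so that this adds nothing to that r. For both arms the r describe 13 tumours that share arrays, slides and scaling, and carry no test.

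The list of other neuronal miRNAs whose level or function is tied to synaptic activity had 17 forms on the array, of which 8 were tested and 0 passed. miR-138 is also on the neuron list and miR-219 on the glial list below. Of the 8, 2 had higher and 6 lower means in deficient tumours, with a median difference of -0.13, against 227 higher, 192 lower and a median of 0.04 for all 419 tested miRNAs. miR-138-5p, which acts on dendritic spines, had the largest difference, at -0.85 (SE 0.50, limma adjusted p = 0.589), was detected in 5 of 7 deficient and 4 of 6 wild-type tumours, and had r = 0.851 with miR-132-3p. miR-134-5p, which represses Limk1 in dendrites, differed by -0.23 (SE 0.22), miR-188-5p by -0.22 (SE 0.43), miR-485-3p by -0.15 (SE 0.28), miR-219-5p by -0.12 (SE 0.26) and miR-485-5p by -0.000325 (SE 0.19). The means of miR-329-3p and miR-381-3p, from the same imprinted cluster as miR-134 and miR-485, were higher by 0.20 (SE 0.17) and 0.05 (SE 0.19). None of these 8 passed, and apart from miR-138-5p their r with miR-132-3p lay between -0.25 and 0.37.

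**Figure D5:**
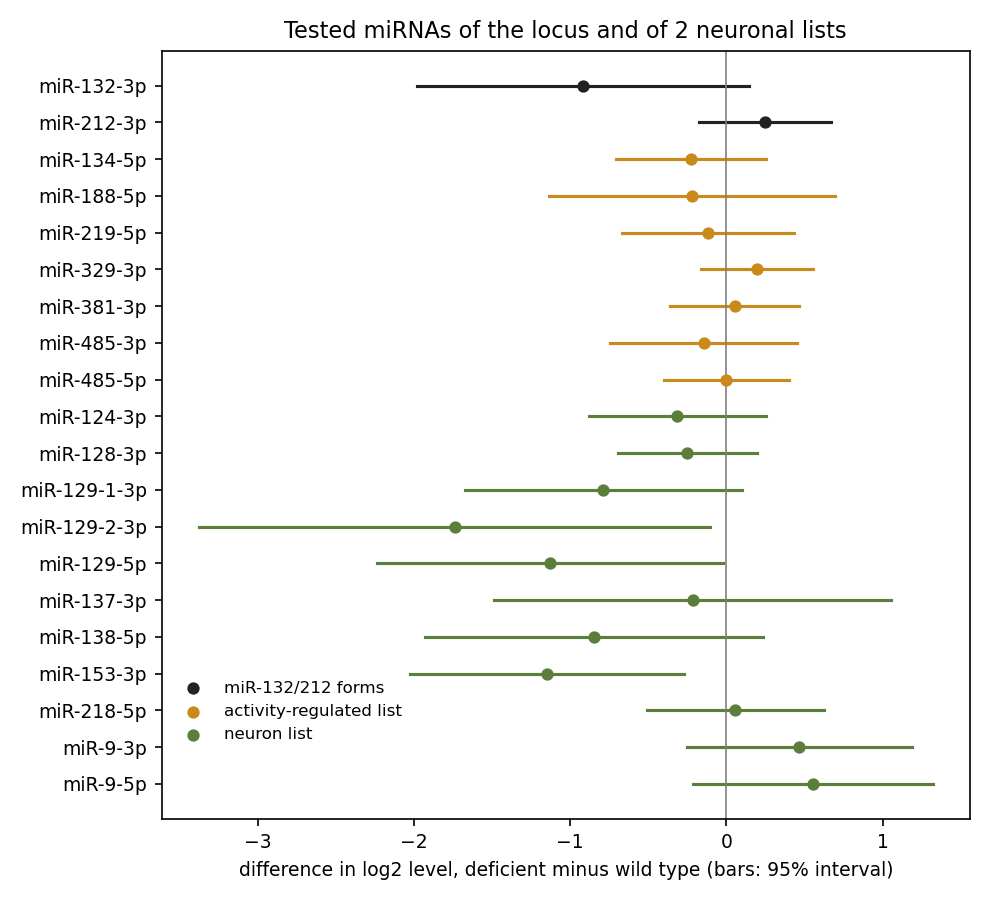
Difference in log2 level, deficient minus wild type (x axis, bars for the 95% interval), of the detected forms of the locus and of the tested members of the activity-regulated and neuron lists. miR-138-5p, drawn with the neuron list, is on both, and no miRNA shown passed an adjusted p of 0.05.

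Bulk tumour RNA cannot tell fewer cells of a type from less RNA per cell, and the part of cell makeup in the spread of miR-132-3p was not tested. The neuron list had 11 tested forms, 3 with higher and 8 with lower means in deficient tumours and a median difference of -0.31, and 0 of them passed, while miR-129-2-3p, miR-129-5p and miR-153-3p had an unadjusted p under 0.05. Over all 419 tested miRNAs 192 had lower means, the median difference was 0.04 and 16, or 3.82%, had an unadjusted p under 0.05. miR-129-2-3p and miR-129-5p are both forms of miR-129 and are not separate observations, and an excess in the list was not tested. The neuron list's mean log2 level spanned 6.87 to 8.11 in deficient and 7.06 to 8.89 in wild-type tumours, and was highest in wild-type replicates 3 and 6, the tumours with the most miR-132-3p. Over 13 tumours that mean had r = 0.694 with miR-132-3p (permutation p = 0.00797, adjusted p = 0.0996) and rho = 0.566 (permutation p = 0.0481, adjusted p = 0.24). Without those tumours r was 0.322. Leaving them out narrows the range of miR-132-3p, which can itself lower r. How far the relation rests on those tumours was therefore not settled. The r was 0.374 among deficient and 0.711 among wild-type tumours, 0.44 on slide 1 and 0.773 on slide 2. Within the list the relation was uneven: miR-129-2-3p and miR-153-3p had r of 0.81 and 0.78 with miR-132-3p, and miR-9-5p had -0.53. The lowest log2 level of miR-153-3p, 4.10, was the value to which lower levels were set. With miR-212-3p the neuron mean had r = 0.0232 over 13 tumours (permutation p = 0.94, adjusted p = 0.997). That r was -0.629 among deficient and 0.748 among wild-type tumours.

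The lists of other cell types had lower Pearson r with miR-132-3p than the neuron list over all 13 tumours, but not on every measure, and differences in r were not tested. The glial rho was 0.632, against 0.566 for the neuron list. Without wild-type replicates 3 and 6, r was 0.54 for the neuroendocrine and 0.425 for the glial list, above 0.322 for the neuron list. The glial list (miR-219 and miR-338, abundant in myelin-forming cells) had 3 tested forms, a mean of 5.36 to 7.12 in deficient and 5.81 to 6.84 in wild-type tumours, and r = 0.594 with miR-132-3p (permutation p = 0.0316, adjusted p = 0.198). The same list had r = -0.644 with miR-212-3p (permutation p = 0.0165, adjusted p = 0.138), and 0.239 without scaling. That relation was uneven within the list: r with miR-212-3p was -0.784 for miR-338-5p, -0.204 for miR-338-3p and -0.0949 for miR-219-5p. The neuroendocrine list had r = 0.424 with miR-132-3p (permutation p = 0.149, adjusted p = 0.533), 0.898 among deficient and -0.0103 among wild-type tumours. The leukocyte list had 7 tested forms and r = -0.224, the 2 endothelial forms of miR-126 r = -0.303, and the erythroid list, with 3 tested forms, r = -0.266, none with an adjusted p under 0.05. The list of fibroblasts and smooth muscle had 6 tested forms and r = 0.0172 with miR-132-3p. Its r with miR-212-3p was 0.00123, and 0.691 without scaling. The skeletal muscle list, with 4, had r = 0.00693 with miR-132-3p and -0.484 with miR-212-3p (permutation p = 0.0916, adjusted p = 0.458). Wild-type replicates 3 and 6, the tumours with the most miR-132-3p, did not stand apart in one way over these lists. Wild-type replicate 3 had the lowest erythroid mean of all 13 tumours, at 7.79, against 9.76 to 11.7 in deficient tumours. On that list wild-type replicate 6 was at 11.3, inside the deficient range only through deficient replicate 1 at 11.7. The next deficient tumour was at 10.3. Wild-type replicate 6 had the highest mean for fibroblasts and smooth muscle, at 8.39, against 6.98 to 8.24 in deficient tumours. Both lay inside the range of the deficient tumours for the leukocyte, neuroendocrine and skeletal muscle lists. For the endothelial forms they were at 7.88 and 8.34. They were inside the range there only through deficient replicate 2 at 7.225, with the next deficient tumour at 8.35. For the glial list they were at 6.84 and 6.58. They were inside the range there only through deficient replicate 4 at 7.12, with the next deficient tumour at 6.26.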

How the data were processed

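The deposited scanner files give a linear intensity per spot, with background already subtracted and spatial detrending recorded, per the file headers, and with no scaling between arrays. They name Feature Extraction 10.7.3.1, and the submitters' processing notes name 10.5.1.1. Detection and outlier marks are other deposited values, each yes or no, per the file headers. The authors' deposited matrix of the series holds log2 values, equal in distribution across arrays (medians 3.82), by a method not given in the sources used here. It served as an alternative.

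Of 47604 spots, 2164 controls were left out. Spots without outlier marks were averaged per probe and probes summed per miRNA. To scale the arrays, the 75th percentile was taken in each over the 294 miRNAs that all 13 detected, and sums were divided by it and returned to the original range with the percentiles' geometric mean. Values below 17.2 were set to 17.2 before log2 was taken. Testing was two-sided, with limma 3.58.1 in R 4.3.3 and Benjamini-Hochberg adjustment at 0.05, over the 419 miRNAs with a detection mark on 6 or more arrays. The code was tested on simulated data. Single ratios were tested by exact permutation and correlations by 100000 permutations. Precision is limited by the number of arrays, with a median 95% half-width of 0.626 on the log2 scale. Named miRNAs are the 4 forms, the 5 nearest by Pearson r to each tested form, and the tested members of the activity list. Other miRNAs of the neuron and glial lists were named after their values were seen. The members and lists were chosen with earlier results of these data known. Alternatives changed the scaling, background, probe summary, floor, filter, variance model, slide, replicate number or source table, or left out 1 tumour. The normexp alternative used an offset of 50 and median signals.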

Additional observations from a re-analysis of the deposited data

Results flagged for a closer look

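Of 32 group-by-measure sets of 6 or 7 tumours checked for a tumour far from the rest of its group, 3 were marked, where chance marks about 1 in 20. Wild-type replicate 3, the tumour with the most miR-132-3p, had a mean log2 level of 8.617 over the activity-regulated list, with the next wild-type tumour at 8.05. Deficient replicate 1 had a mean of 11.71 over the erythroid list, with the next deficient tumour at 10.3. Deficient replicate 2 had a mean of 7.225 over the endothelial forms, with the next deficient tumour at 8.35. No level of miR-132-3p or miR-212-3p, and no ratio of them, was marked within its group.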

How the results depend on the processing

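No miRNA was called under any of the 19 alternatives or with any tumour left out. Across those 19 alternatives the difference of miR-132-3p stayed negative (-1.238 to -0.397) and that of miR-212-3p positive (0.105 to 0.442), neither passing. With 1 tumour left out they were -1.292 to -0.594 and 0.1407 to 0.3422. The group difference in the log2 ratio of miR-212-3p to miR-132-3p stayed positive in 15 alternatives. It passed in 1, normexp background (0.7381, exact permutation p = 0.0291), and it was 0.8987 to 1.514 with 1 tumour left out. The cause was not tested. Array weights gave -0.62 for miR-132-3p. With the replicate number as a block, the differences were -1.067 and 0.284, that of the log2 ratio was 1.351, and 0 miRNAs were called. The numbers did not pair the tumours (r of same-numbered deviations from -0.22 to 0.194, above 0.1 in 3 of 6).

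The correlation of the 3p arms turned positive without scaling (0.2325), after quantile normalization (0.0597), in the series matrix (0.1141), within wild-type tumours (0.2904) and within slide 2 (0.1968). Without scaling, correlations of miR-132-3p turned to 0.082 for leukocyte, 0.1078 for endothelial and 0.0723 for erythroid means and -0.0077 for 1 miR-132-5p probe, and those of miR-212-3p to 0.3665 for leukocyte and 0.2393 for glial means, 0.2736 for 1 miR-132-5p probe and 0.2618 for 1 miR-212-5p probe. The leukocyte correlation of miR-212-3p was 0.0433 after quantile normalization and 0.00678 in the series matrix, and the skeletal muscle correlation of miR-132-3p was -0.0317 and -0.0479. Other correlations of miR-212-3p grew without scaling and kept their sign. That with the fibroblast and smooth muscle mean went from 0.00123 to 0.6914 (permutation adjusted p = 0.052). The erythroid one went from 0.221 to 0.6976 (permutation adjusted p = 0.052) and the endothelial one from 0.069 to 0.6398 (permutation adjusted p = 0.0769). The causes were not tested. The neuron mean's correlation with miR-132-3p passed without scaling (0.7757, permutation adjusted p = 0.0244).

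Both 5p arms were below detection on all 13 arrays, so that their group difference and the ratio of 3p to 5p arms were not measured.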
